A study of Mus musculus with 10 samples.

Results

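The genes described here are the colony stimulating factor genes and their receptors that were read in macrophages of lung metastases and of normal lung. They are Csf1, which encodes the macrophage growth factor M-CSF (CSF1), Csf1r, its receptor, Csf2ra, Csf2rb and Csf2rb2, the chains of the GM-CSF receptor and its close relative, and Csf3r, the receptor of G-CSF. The genes were taken as a fixed list of 6 names. All 6 were found among the 24538 genes of the deposited count tables, and all 6 were among the 11571 genes that were tested.

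CSF1 binds CSF1R, a receptor tyrosine kinase on the surface of monocytes and macrophages, and macrophages in most tissues depend on this signal to survive. GM-CSF (CSF2) acts through an alpha chain that binds it, CSF2RA, and a beta chain, CSF2RB, that carries the signal to the kinase JAK2 and to STAT5. In the lung this pathway is known for setting up and keeping alveolar macrophages. Mice carry a second beta chain gene, Csf2rb2, whose product serves the IL-3 receptor, whereas Csf2rb is shared by GM-CSF, IL-3 and IL-5. CSF3R is best known as the receptor through which G-CSF drives the production of neutrophils.

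RNA-seq compared 5 libraries of metastasis-associated macrophages (MAMs) with 5 libraries of resident alveolar macrophages (RAMs), all from wild type C57BL6/J mice aged 8 to 10 weeks. MAMs came from lung metastases under 1 mm across, which had been seeded by injecting E0771-LG, a line of mouse breast cancer cells, into the tail vein of females aged 6 to 8 weeks. RAMs came from normal lung. Cells of both groups were sorted as CD45+ F4/80+ LY6C- MRC1+ and large (high forward scatter), MAMs from the CD11B+ CD11C- gate and RAMs from the CD11B- CD11C+ gate. Both were digested in the presence of alpha-amanitin and actinomycin D, which block transcription. The labels state that metastases were pooled from 2 to 4 mice. Since the groups differed in the state of the lung and in the gate, these cannot be told apart in any difference given here, and p-values measure the spread between these libraries. In sorted bulk RNA, fewer cells that express a gene and less RNA per cell cannot be told apart either.

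Between 50746305 and 87523247 reads per library were counted on genes. Itgam, the gene of CD11B, was at 6270 CPM (counts scaled to a common library total) in MAMs and 64.3 in RAMs, and Itgax, the gene of CD11C, was at 171 and 991 CPM, in the direction of the gates. The general macrophage genes Cd68, Adgre1, Mertk, Fcgr1 and Lyz2 were all read in both groups. Of 20 tested genes known from alveolar macrophages, 15 were lower in MAMs by more than 2-fold with an adjusted p below 0.05. The median log2 fold change of the 20 was -2.67. By the same rule 15.1% of all tested genes were lower in MAMs.

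Of the 6 genes, 5 differed between MAMs and RAMs at an adjusted p under 0.05, 3 of them higher and 2 lower in MAMs. Over all tested genes 56.2% passed this limit, 28.9% higher and 27.3% lower in MAMs. With a fold change over 2 as a further condition, 4 of the 6 genes were called, against 30.3% of all tested genes. Csf1, Csf1r and Csf3r were called higher in MAMs, a direction in which 15.3% of all genes were called. Csf2rb was called lower in MAMs, as were 15.1% of all genes. The MAM and RAM libraries did not overlap in 5 of the 6 genes and in 44.9% of all genes. The median log2 fold change was 0.47 over the 6 genes and -0.02 over all tested genes.

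**Figure D1:**
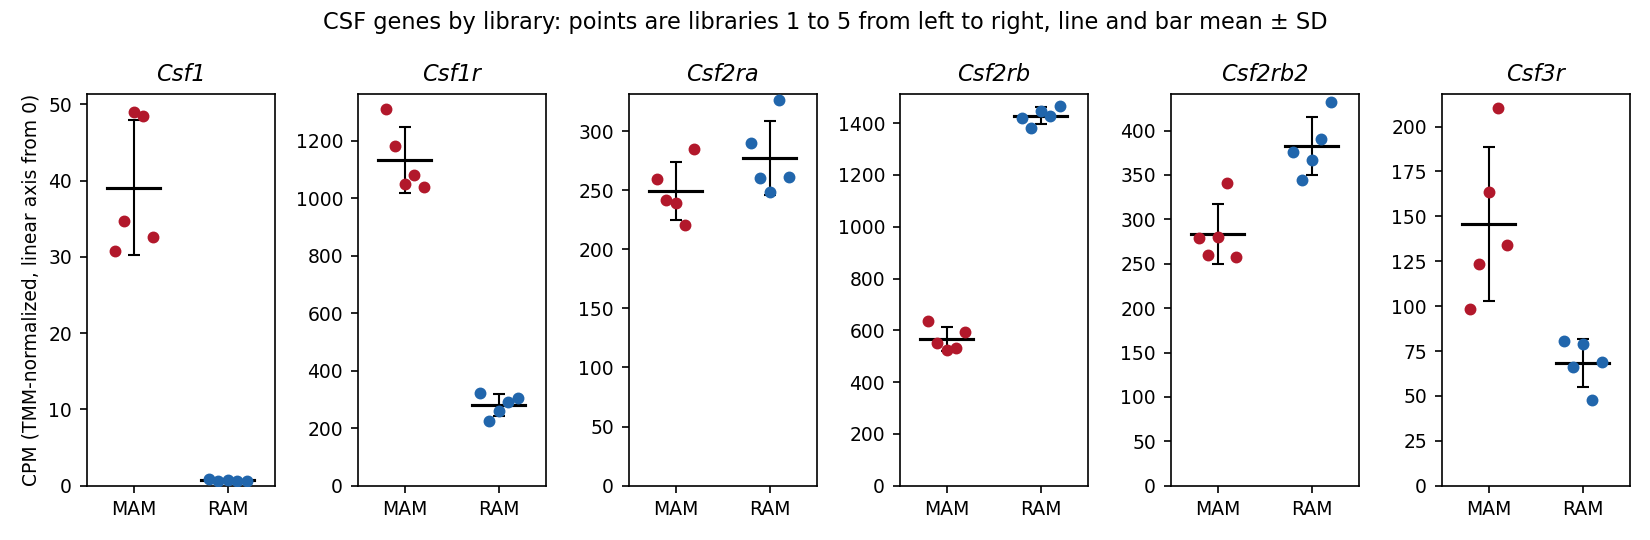
CPM (TMM-normalized, linear axes from 0) of each of the 6 genes in 5 MAM (red) and 5 RAM (blue) libraries. Points are replicates 1 to 5 from left to right, and the lines and bars are the mean and SD. The 2 groups are separate for every gene except Csf2ra, with Csf1, Csf1r and Csf3r higher in MAMs and Csf2rb and Csf2rb2 higher in RAMs.

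Csf1, the ligand, showed the largest difference of the 6 genes. In MAMs it was at 30.8, 34.7, 49.0, 48.4 and 32.6 CPM in replicates 1 to 5. In RAMs it was at 0.890, 0.631, 0.725, 0.605 and 0.661 CPM. Every MAM library was far above every RAM library, and the highest library was 1.59 times the lowest in MAMs and 1.47 times in RAMs. The log2 fold change was 5.79 (standard error 0.229, 95% interval 5.30 to 6.28, adjusted p = 1.21e-11, quasi-likelihood test of edgeR, Benjamini-Hochberg adjusted), or 55.4-fold. The RAM values rested on 29 to 52 reads per library, above the 3 reads that a count of 0 would allow, and their mean was 1.80% of the MAM mean. The fold change was 3.40 on the log2 scale with limma on log2(FPKM + 1), where the pseudocount exceeds every RAM value, and 6.97 when 1% of the other group's level was subtracted from each library.

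The Csf1 gene lies on the minus strand at chr3:107741048-107760469 of GRCm38, and its longest coding transcript has 9 exons in GENCODE M21. Its promoter is shown because it belongs to the gene with the largest difference. It runs from 250 bases before to 50 bases after the RefSeq start, at chr3:107760420-107760719 on the minus strand of GRCm38.p6, and 58.7% of its bases are G or C. Capitals mark matches to a core of NF-kB motifs, GGGA and CC with 4 bases of any kind between them, on either strand.
Csf1 promoter: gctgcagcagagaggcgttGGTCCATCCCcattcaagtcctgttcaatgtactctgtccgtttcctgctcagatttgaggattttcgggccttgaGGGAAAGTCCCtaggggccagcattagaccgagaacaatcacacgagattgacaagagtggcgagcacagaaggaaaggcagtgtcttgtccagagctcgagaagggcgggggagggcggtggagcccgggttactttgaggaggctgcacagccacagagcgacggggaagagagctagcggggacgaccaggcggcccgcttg
The matches begin at -231, -155 and -154 from the start, and the last 2 overlap as a forward and a reverse match. At least 1 such match was found in 20.7% of the 32851 RefSeq promoters of this length, so it is a common feature of promoters. No match to the letters of PU.1 (GAGGAA), AP-1 (TGANTCA), STAT (TTCNNNGAA) or C/EBP (TTGCNNAA) motifs, or to the interferon response motif (GAAA repeated after 2 bases of any kind), lay in this window.

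CSF1 is made as a membrane protein that can be cut loose from the cell surface, a step for which the protease ADAM17 and its partners of the iRhom family are known. Adam17 was higher in MAMs, with a log2 fold change of 0.47 (adjusted p = 2.65e-05, quasi-likelihood test of edgeR), at 324 CPM against 234. Rhbdf2, the gene of iRhom2, was called higher, with a log2 fold change of 1.36 (adjusted p = 2.50e-08, edgeR). Furin, a protease that matures other proteases, was lower in MAMs by a smaller amount (log2 fold change -0.32, adjusted p = 0.00340, edgeR). Rhbdf1 was at 2.42 and 3.33 CPM and did not pass the test (adjusted p = 0.570, edgeR).

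The other ligands of these receptors were at or close to 0. Csf2, Il3 and Il5, which encode GM-CSF and the other 2 ligands of the beta chain, had no read in any of the 10 libraries, which allows up to 0.0431 to 0.0671 CPM per library. Csf3, the gene of G-CSF, had 0, 0, 8, 42 and 0 reads in MAM replicates 1 to 5 and 7, 5, 5, 0 and 0 in RAMs. Il34, the second ligand of CSF1R, had 1, 2, 1, 43 and 1 reads in MAMs and 56, 104, 63, 10 and 11 in RAMs. MAM replicate 4 stood above the other MAM libraries for both genes and lay within or above the RAM range. Csf3 and Il34 were below the mean FPKM of 1 required in either group and were not tested. Csf1 was thus the only one of these ligand genes to reach that level, and it did so in MAMs.

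Csf1r, the receptor of CSF1, was high in both groups and higher in MAMs. Its level was 1309, 1182, 1051, 1079 and 1040 CPM in MAM replicates 1 to 5, and 322, 225, 259, 290 and 304 CPM in the RAM replicates. The lowest MAM library was above the highest RAM library by a wide margin. The log2 fold change was 2.02 (standard error 0.102, 95% interval 1.80 to 2.23, adjusted p = 2.10e-10, quasi-likelihood test of edgeR), or 4.04-fold. With 12526 to 72418 reads per library the counting error was small beside the spread between libraries, whose coefficient of variation was 10.0% in MAMs and 13.7% in RAMs. Csf1r lies on chromosome 18. In GENCODE M21 it overlaps Hmgxb3 on the opposite strand, whereas in the RefSeq gene table the 2 genes lie 138 bases apart. A strand setting is not given in the sources used here, so reads from any overlap cannot be told apart. Hmgxb3 was at 35.7 CPM in MAMs and 34.9 in RAMs, with a log2 fold change of 0.03 that did not pass the test (adjusted p = 0.898, edgeR).

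Genes that act directly after CSF1R moved both ways, as tested genes did in general. Of 24 such genes, all tested, 11 were higher and 8 were lower in MAMs at an adjusted p under 0.05, and 5 did not pass. Among all tested genes 28.9% were higher and 27.3% lower at this limit. The median log2 fold change of the 24 was 0.09, and 4 of them were called, against 30.3% of all tested genes. The kinase genes Src and Fyn were called higher, at log2 fold changes of 2.26 (adjusted p = 0.00140, edgeR) and 1.01 (adjusted p = 0.000273, edgeR). Src was low in both groups, at 3.89 and 0.810 CPM. Mapk3, which encodes the kinase ERK1, was called lower with a log2 fold change of -1.45 (adjusted p = 1.88e-10, edgeR), and the adaptor gene Gab3 with -1.06 (adjusted p = 0.000130, edgeR). Tyrobp, which encodes the adaptor DAP12, had a log2 fold change of only 0.23 (adjusted p = 0.0257, edgeR), and it did not pass the adjusted p limit in 8 of 22 alternatives, among them upper-quartile normalization (0.06) and each fit without MAM replicate 2, MAM replicate 5, RAM replicate 2 or RAM replicate 3 (0.18 to 0.21).

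**Figure D2:**
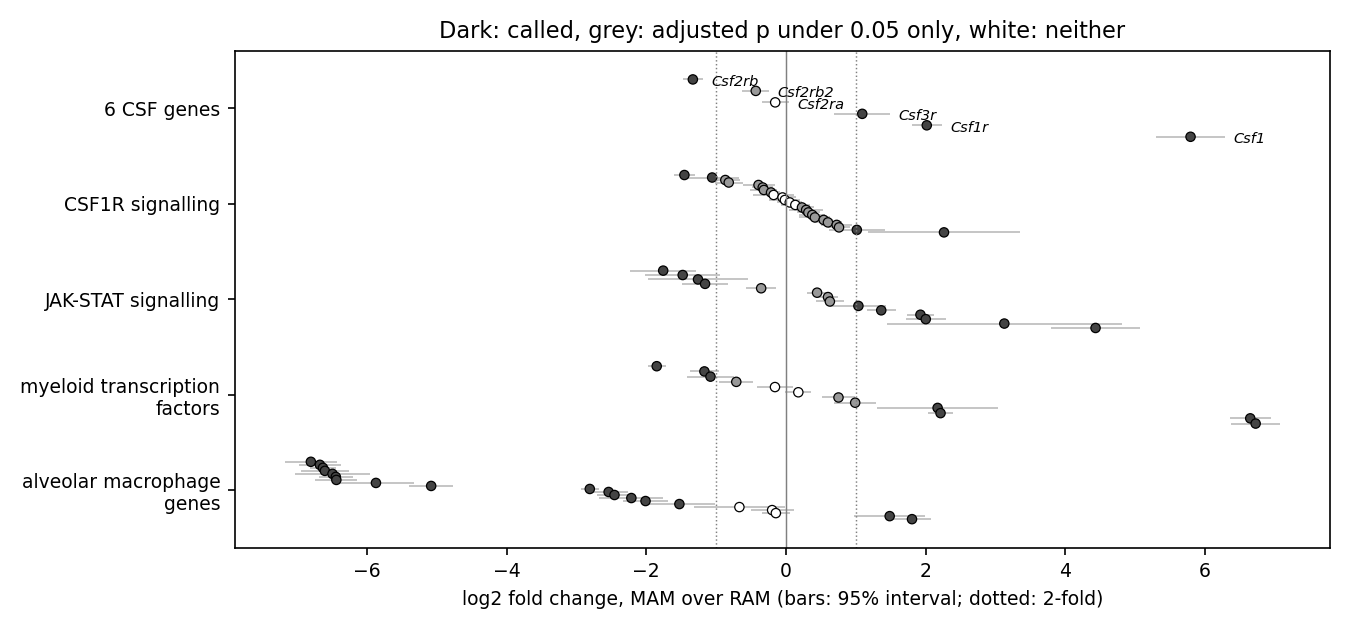
Log2 fold change of MAMs over RAMs (x axis, bars are 95% intervals from the edgeR fit) for the tested genes of the CSF list and of 4 related lists, 1 point per gene. Dark points were called, grey points passed only the adjusted p limit, and white points passed neither. The CSF genes run from -1.33 for Csf2rb to 5.79 for Csf1, while genes after CSF1R gather near 0 around a median of 0.09.

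Csf2ra, the chain that binds GM-CSF, was not found to differ. It was at 259, 242, 239, 221 and 285 CPM in MAM replicates 1 to 5 and at 290, 260, 248, 326 and 261 CPM in the RAM replicates. The ranges overlapped, with the lowest values in MAMs and the highest in a RAM library. The log2 fold change was -0.15 (standard error 0.0914, 95% interval -0.35 to 0.04, adjusted p = 0.167, quasi-likelihood test of edgeR). The interval allowed a level in RAMs up to 1.27 times that in MAMs. An exact permutation test of the 10 log2 CPM values gave p = 0.135 (two-sided). In 3 alternatives the difference passed the adjusted p limit, at -0.32 under upper-quartile normalization, which moved the median of all genes by -0.16, and at -0.24 with limma on FPKM. It stayed below 2-fold in all of them.

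The Csf2ra gene spans only 4473 bases, at chr19:61223957-61228429 on the minus strand, with 12 exons in its longest coding transcript. Its promoter is shown to set the gene with the smallest difference beside Csf1. It lies at chr19:61228369-61228668 on the minus strand of GRCm38.p6. Capitals mark matches to GAGGAA, a core of PU.1 motifs.
Csf2ra promoter: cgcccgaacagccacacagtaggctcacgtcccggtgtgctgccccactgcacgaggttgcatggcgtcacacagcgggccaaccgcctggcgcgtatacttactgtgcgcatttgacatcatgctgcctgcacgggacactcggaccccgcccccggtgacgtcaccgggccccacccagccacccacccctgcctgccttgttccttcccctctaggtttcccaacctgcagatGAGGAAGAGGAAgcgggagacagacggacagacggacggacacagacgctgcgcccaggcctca
The 2 matches stand next to each other at -14 and -8 from the start. At least 1 match was found in 28.3% of all RefSeq promoters of this length. None of the other motifs searched, including that of NF-kB, lay in the window. PU.1 is the factor that directs myeloid genes, and its gene Spi1 was at 445 CPM in MAMs against 393 in RAMs, a difference of 0.18 as log2 fold change that did not pass the test (adjusted p = 0.0944, edgeR). Without RAM replicate 5 it passed, at 0.22. In the promoters analysed, matches to PU.1 were found for genes higher and for genes lower in MAMs. Matches to NF-kB were found only for Csf1 and Csf3r, both higher in MAMs. Whether matches relate to the differences was not tested. The promoter of Csf3r, higher in MAMs, held a match to NF-kB at -129 and to PU.1 at -86. That of Csf2rb2, lower in MAMs, held matches to PU.1 at -167 and 30 and to STAT at -15. The promoters of Csf2rb and Csf1r were not analysed here.

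Csf2rb, the beta chain that carries the GM-CSF signal, was the only one of the 6 genes to be called lower in MAMs. Its level was 637, 551, 526, 532 and 592 CPM in MAM replicates 1 to 5. In RAM replicates 1 to 5 it was 1419, 1383, 1449, 1429 and 1467 CPM. The RAM libraries were all at more than double the highest MAM library, and they were the tightest set among the 6 genes, with a coefficient of variation of 2.23% against 8.21% in MAMs. The log2 fold change was -1.33 (standard error 0.0669, 95% interval -1.48 to -1.19, adjusted p = 1.91e-10, quasi-likelihood test of edgeR), so the gene was 2.52-fold higher in RAMs.

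Csf2rb2, the beta chain of the IL-3 receptor, differed in the same direction by much less. It was at 279, 260, 280, 341 and 257 CPM in MAM replicates 1 to 5, and at 376, 345, 367, 391 and 433 CPM in RAMs. The highest MAM library, replicate 4, lay just under the lowest RAM library, replicate 2, at 341 against 345 CPM. The log2 fold change was -0.43 (standard error 0.0892, 95% interval -0.62 to -0.24, adjusted p = 0.000718, quasi-likelihood test of edgeR), a 1.35-fold difference that was not called. Without MAM replicate 4 it was -0.51.

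Csf2rb and Csf2rb2 are neighbours on chromosome 15, on opposite strands and 20.1 kb apart, Csf2rb on the plus strand at chr15:78325752-78353847 and Csf2rb2 on the minus strand at chr15:78282507-78305721. Their coding sequences, of 2688 and 2634 bases, were 95.2% identical over 2628 aligned bases. The stretch of 90 coding bases in which they differed most is shown, since only such differences let a read be assigned to one of the genes. Capitals mark the 16 bases that differ, in coding bases 308 to 397 of Csf2rb and 311 to 400 of Csf2rb2, both from GENCODE M21 transcripts on GRCm38 and written in the sense of the gene.
Csf2rb: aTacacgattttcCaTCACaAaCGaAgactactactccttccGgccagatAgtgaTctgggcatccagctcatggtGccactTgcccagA
Csf2rb2: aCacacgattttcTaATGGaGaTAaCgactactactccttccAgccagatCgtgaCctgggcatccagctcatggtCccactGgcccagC
Outside such stretches the genes can be alike over long runs, the longest being 242 identical bases at coding bases 2083 to 2324 of each. Of all windows of 100 bases, the length of a read, 6.96% of the Csf2rb transcript and 7.20% of the Csf2rb2 transcript were found unchanged in the other gene. The authors counted reads that map to 1 place, and a read from such a window, taken alone, maps to both genes. The reads were paired, however, and windows with few differences were not counted. The shares therefore do not measure how uncertain the levels of these genes are. When the counts of the 2 genes were added before the fit, the sum had a log2 fold change of -1.09 (adjusted p = 5.38e-10, edgeR). Within each library the ratio of Csf2rb to Csf2rb2, in FPKM, was 2.04 ± 0.322 in MAMs and 3.77 ± 0.182 in RAMs (SD, n = 5), and the libraries of the groups did not overlap.

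Among the other receptor chains that use a beta chain, Il3ra, the alpha chain for IL-3, was called higher in MAMs. It was at 12.2 CPM in MAMs and 2.15 in RAMs, with a log2 fold change of 2.50 (adjusted p = 1.92e-05, quasi-likelihood test of edgeR). Il5ra, the alpha chain for IL-5, had 0 to 9 reads in MAM libraries and 0 to 42 in RAM libraries and was not tested. The alpha chains of the family therefore did not move alike, Csf2ra showing no difference that passed the test and Il3ra being higher in MAMs.

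Genes of the JAK-STAT route used by the GM-CSF and G-CSF receptors all passed the test, in different directions. Of 14 genes, 9 were higher and 5 were lower in MAMs, with 6 and 4 called, and the median log2 fold change was 0.62. Among all tested genes 56.2% passed, and 15.3% were called higher and 15.1% lower. Jak2, the kinase bound to the beta chain, was called higher with a log2 fold change of 1.36 (adjusted p = 1.06e-08, edgeR), whereas Stat5a was called lower with -1.16 (adjusted p = 1.09e-05, edgeR). Stat5b was lower by a small amount, at -0.36 (adjusted p = 0.00758, edgeR). The 2 largest changes in each direction were all of feedback inhibitors. Socs3 and Socs1 were called higher, at 4.43 (adjusted p = 5.87e-09, edgeR) and 3.13 (adjusted p = 0.00333, edgeR), and Socs2 and Cish, both known as targets of STAT5, were called lower, at -1.76 (adjusted p = 7.06e-06, edgeR) and -1.48 (adjusted p = 0.000120, edgeR). Socs1 rested on low levels, 6.62 CPM in MAMs and 0.758 in RAMs, where replicate 3 alone was at 2.61.

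Csf2rb was read beside the genes of alveolar macrophages, in which GM-CSF is known to act. Of the 20 tested, 15 were called lower in MAMs and 2 higher, against 15.1% and 15.3% of all tested genes. Pparg, the nuclear receptor gene known to be switched on by GM-CSF in fetal lung monocytes, was at 36.6 CPM in MAMs against 201 in RAMs, or -2.45 as log2 fold change (adjusted p = 1.37e-10, edgeR). The lipid-handling genes Fabp1 and Cidec had the most negative log2 fold changes of the list, at -6.80 (adjusted p = 1.14e-13, edgeR) and -6.67 (adjusted p = 9.06e-15, edgeR). Cd36 and Fabp5, which also handle lipids, were called higher, at 1.80 (adjusted p = 9.20e-09, edgeR) and 1.48 (adjusted p = 7.11e-05, edgeR).

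Csf3r, the receptor of G-CSF, was higher in MAMs and the most variable of the 6 genes there. It was at 98.5, 123, 163, 210.3 and 134 CPM in MAM replicates 1 to 5 and at 80.6, 66.3, 78.8, 47.4 and 68.9 CPM in the RAM replicates. The groups did not overlap, although MAM replicate 1 came close to the top of the RAM libraries, and MAM replicate 4 was more than double MAM replicate 1. The coefficient of variation was 29.4% in MAMs and 19.4% in RAMs. The log2 fold change was 1.09 (standard error 0.186, 95% interval 0.69 to 1.49, adjusted p = 0.000131, quasi-likelihood test of edgeR), or 2.13-fold. It passed the adjusted p limit in all 22 alternatives but was called in only 17 of them. The value fell below 2-fold without MAM replicate 4 (0.92), without RAM replicate 4 (0.98), under upper-quartile normalization (0.93), with limma on log2(FPKM + 1) (0.99) and in replicates 1 to 3 alone (0.77). In replicates 4 and 5 alone it was 1.56.

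CSF3R is typical of neutrophils, so their markers were read in the same libraries. Summed over 13 markers they were at 136 to 171 CPM in MAMs and 71.4 to 127 CPM in RAMs. Of the 13, 6 were tested, 3 of these being called higher and 1 lower in MAMs, against 15.3% and 15.1% of all tested genes. The gene called lower was Cxcr2, at 7.41 CPM in MAMs and 31.2 in RAMs. Elane had no read in any library, and Ly6g had 17, 1, 66, 0 and 0 reads in MAM replicates 1 to 5 and none in RAMs. The sum in MAMs was mostly Padi4, at 93.8 CPM against 0.851 in RAMs, and in RAMs mostly Mmp8, at 58.5 CPM against 42.0 in MAMs. S100a8, one of the most abundant genes of neutrophils, was at 2.48, 3.67, 2.42, 7.58 and 4.45 CPM in MAMs and at 1.40 to 2.32 CPM in RAMs. Among the MAM libraries, S100a8, S100a9, Cxcr2 and Mmp8 of the tested markers were highest in replicate 4, which also had the most Csf3r. Padi4 was the lowest of the MAM libraries there, at 68.0 CPM, and Lcn2 was highest in MAM replicate 1. Ly6g had no read in MAM replicate 4. Among the RAM libraries, replicate 4 had the least Csf3r, at 47.4 CPM, but the most Cxcr2 and S100a9, at 46.8 and 1.06 CPM. S100a8, Mmp8, Padi4 and Lcn2 were highest in other RAM libraries. The part of other cells in the Csf3r difference was not tested.

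Most monocyte markers, like Csf1 and Csf1r, were higher in MAMs. Their sum was 4784 to 11554 CPM in MAMs and 1460 to 2492 CPM in RAMs. Of the 11, 8 were called higher in MAMs, against 15.3% of all tested genes. Of the other 3, Ace was called lower, with a log2 fold change of -1.78 (adjusted p = 0.000141, edgeR), and Nr4a1 and Treml4 did not pass the test. Most of the sum was Fn1, and Ccr2 was at 444 CPM in MAMs and 14.0 in RAMs. MAM replicate 1 was highest for Csf1r and for the monocyte sum, and MAM replicate 4 had the lowest monocyte sum but the second highest Csf1. The order of the MAM libraries by this sum was that of Fn1, at 10409 CPM in replicate 1 and 3588 in replicate 4. Other markers did not all follow it. Ccr2 and Plac8 were also highest in MAM replicate 1, whereas Ly6c2, Vcan and F13a1 were lowest there among MAMs. Markers of stromal and endothelial cells, which can also make CSF1, summed to 62.2 to 119 CPM in MAMs and 127 to 219 CPM in RAMs. Vwf was the most abundant of them in RAMs. Of the 6 tested, 5, among them Kdr and Pecam1, were called higher in MAMs, against 15.3% of all tested genes. Sums of the epithelial and tumour cell markers were 16.7 to 25.6 CPM in MAMs and 609 to 734 CPM in RAMs. In RAMs the sum was mostly Krt19, at 436 CPM, with Cdh1 at 131 and Epcam at 76.8. The other markers of that list were far lower in RAMs. Sftpc, Scgb1a1 and Sftpb were at 14.4, 10.4 and 4.28 CPM, and Krt18 and Krt8 at 0.119 and 0.0453. Markers of dendritic cells summed to at most 26.2 CPM, those of lymphocytes to at most 19.4 CPM, and those of basophils, eosinophils and mast cells to at most 10.5 CPM in any library. Their part in the differences of the 6 genes was not tested.

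Genes of factors that act in myeloid cells, some of them on Csf1r itself, also moved both ways. Of 12 tested, 6 were higher and 4 were lower in MAMs, with 4 and 3 called and a median log2 fold change of 0.46. Among all tested genes 28.9% were higher and 27.3% lower, with 15.3% and 15.1% called. Maf, a factor of macrophages, was called higher at 6.72 (adjusted p = 5.66e-14, edgeR). Runx1, which binds regulatory DNA of Csf1r, was called lower at -1.85 (adjusted p = 1.66e-12, edgeR), and Klf4 at -1.17 (adjusted p = 7.27e-08, edgeR).

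Levels of the 6 genes were compared with each other in FPKM, which corrects for transcript length. In MAMs the order was Csf1r at 311 ± 31.6 FPKM, Csf2ra at 212 ± 17.1, Csf2rb at 120 ± 10.5, Csf2rb2 at 59.8 ± 7.19, Csf3r at 32.1 ± 8.81 and Csf1 at 12.5 ± 2.41 FPKM (SD, n = 5). No 2 neighbours in this order overlapped between libraries. In RAMs the order was Csf2rb at 322 ± 7.79 FPKM, Csf2ra at 251 ± 28.8, Csf2rb2 at 85.5 ± 5.44, Csf1r at 78.3 ± 10.6, Csf3r at 15.4 ± 2.83 and Csf1 at 0.263 ± 0.0675 FPKM (SD, n = 5). Here Csf2rb2 and Csf1r overlapped, with Csf2rb2 above Csf1r in 4 of 5 libraries, and the other neighbours did not. Csf1r was thus the highest of the 6 in MAMs and the fourth in RAMs, and Csf2rb the third in MAMs and the highest in RAMs. In MAMs only 1.93% of tested genes had a higher FPKM than Csf1r, and in RAMs only 1.35% had a higher one than Csf2rb. Csf1 lay near the middle of the tested genes in MAMs, where 43.2% were higher, and near the bottom in RAMs, where 96.4% were higher.

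**Figure D3:**
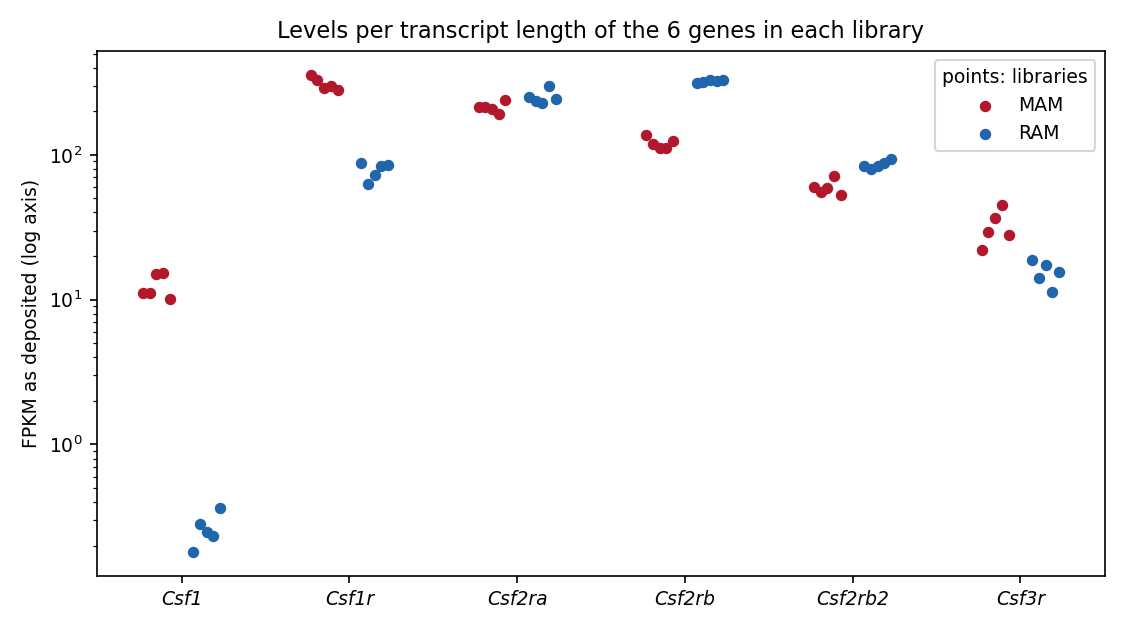
FPKM as deposited (log axis) of the 6 genes in each of 5 MAM (red) and 5 RAM (blue) libraries, 1 point per library. Csf1r leads in MAMs at 282 to 358 FPKM and Csf2rb leads in RAMs at 311 to 330, while Csf1 is the lowest gene in both.

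Receptor chains were also set against each other within each library. The FPKM of Csf1r was 1.47 ± 0.189 times that of Csf2ra in MAMs and 0.312 ± 0.0401 times in RAMs (SD, n = 5). Against Csf2rb it was 2.58 ± 0.191 times in MAMs and 0.243 ± 0.0336 times in RAMs (SD, n = 5). The beta chain relative to its alpha chain, Csf2rb over Csf2ra, was 0.568 ± 0.0461 in MAMs and 1.29 ± 0.137 in RAMs (SD, n = 5). All 5 MAM libraries thus had more Csf1r than either GM-CSF receptor chain and all 5 RAM libraries had less, and Csf2rb was below Csf2ra in every MAM library and above it in every RAM library. The receptor exceeded its ligand in both groups, Csf1r being 25.8 ± 5.97 times Csf1 in MAMs and 317 ± 108 times in RAMs (SD, n = 5).

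**Figure D4:**
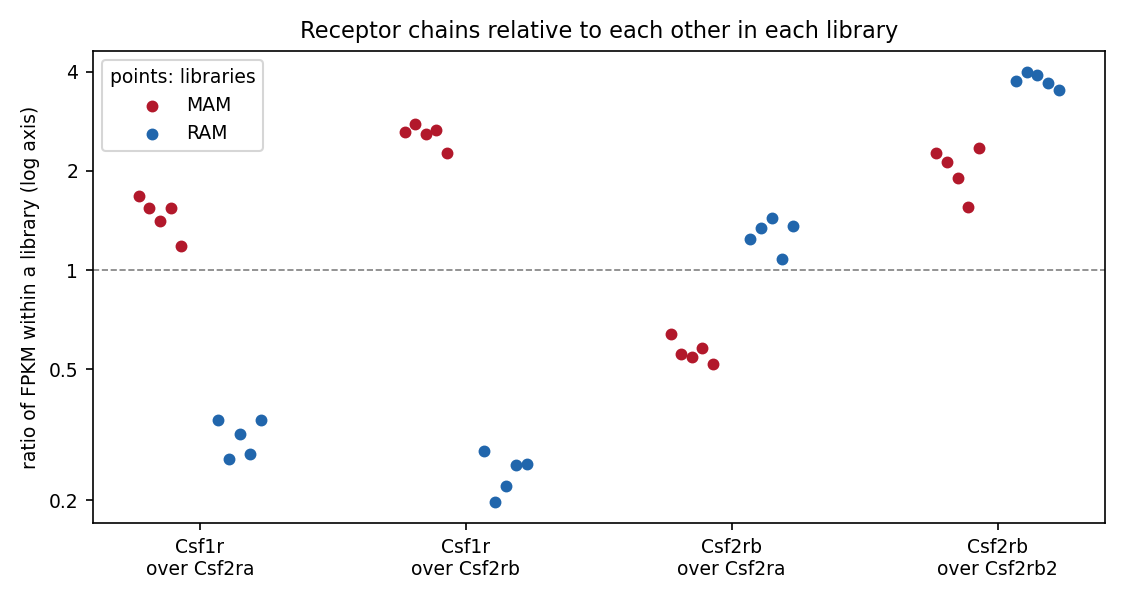
Ratio of FPKM between receptor chains within each library (log axis, dashed line at equal levels), 5 MAM (red) and 5 RAM (blue) libraries. The groups do not overlap in any of the 4 ratios, and 3 of them lie on opposite sides of 1 in MAMs and RAMs.

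For each of the 6 genes, the tested genes most like it were found by Pearson's r of log2 CPM over the 10 libraries. The libraries form 2 groups, so r over all of them mostly follows the group difference, and r after subtracting the group means is given beside it as a description. Csf1 was most like Clec4a1 (r = 0.999, or 0.811 after group means) and Folr2 (0.999 and 0.795). Csf1r was most like Gbp9 (0.998 and 0.922) and Timp2 (0.998 and 0.935). For Csf2rb these were Ramp1 (0.998 and 0.828) and Ptgfrn (0.997 and 0.916). For Csf2rb2, Arsg is given (0.962 and 0.848). Csf3r was most like Kdm6b (0.971 and 0.901) and Itga6 (0.971 and 0.904). For Csf2ra, which differed least between the groups, r over all libraries was lowest, with Tex261 (0.879 and 0.863) and Abcf2 (0.878 and 0.838).

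The genes next to the 6 on the chromosomes were read as well. Ncf4, which encodes a subunit of the phagocyte oxidase and lies 19.9 kb from Csf2rb2, was called higher in MAMs with a log2 fold change of 1.68 (adjusted p = 1.22e-08, edgeR), opposite to both beta chain genes. Ahcyl1, 44.5 kb from Csf1, was higher in MAMs, with a log2 fold change of 0.53 (adjusted p = 5.98e-05, edgeR), far less than Csf1. Mrps15, 1.95 kb from Csf3r, was lower in MAMs with a log2 fold change of -0.54 (adjusted p = 0.00158, edgeR). Pdgfrb, 20.5 kb from Csf1r, was at 1.00 and 0.262 CPM and was not tested.

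**Figure D5:**
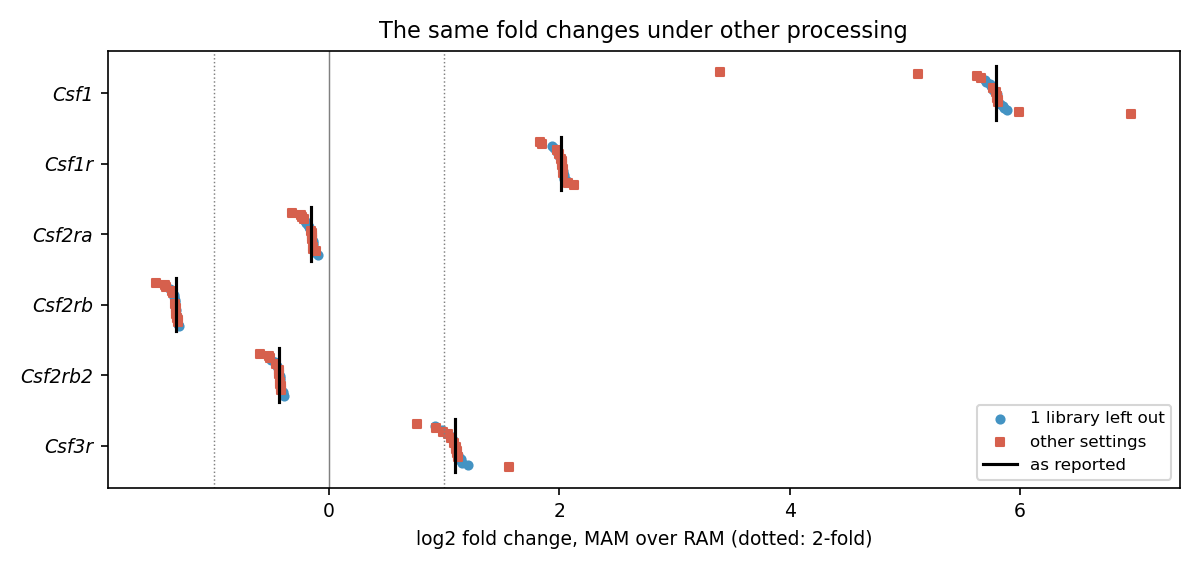
Log2 fold change of MAMs over RAMs for each of the 6 genes as reported (black line) and under 22 alternatives, 10 that leave out 1 library (blue) and 12 others (red), with dotted lines at 2-fold. Each gene stays on its side of 0. Csf3r crosses the 2-fold line and Csf1 ranges from 3.40 to 6.97.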

How the data were processed

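RNA of sorted macrophages was sequenced in 5 MAM and 5 RAM libraries. The authors aligned paired reads to GRCm38 with TopHat2 2.0.13, counted the reads of each gene that mapped to 1 place with HTSeq 0.6.1 on UCSC RefGene models, and deposited raw counts. They also deposited FPKM values from Cufflinks 2.2.1. Lines that name no gene, 56.5% ± 1.65 of all counts in MAMs and 63.2% ± 0.898 in RAMs (SD, n = 5), were left out. The replicate numbers and groups were taken from the sample labels.

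The 11571 genes that reached a mean FPKM of 1 in either group were tested with edgeR's quasi-likelihood test (edgeR 4.0.16, R 4.3.3), TMM normalization, no covariates and Benjamini-Hochberg adjustment over all of them. TMM factors were 0.897 to 0.943 in MAMs and 1.07 to 1.10 in RAMs. A gene was called when it differed by more than 2-fold with an adjusted p below 0.05. CPM use the TMM-normalized totals. A count of 0 allows 3 reads, a limit that covers counting error only, as PCR reads without molecular identifiers are not independent. Standard errors were derived from the F statistic. Each of the 6 genes was also compared by an exact permutation test of log2 CPM over libraries, given here for Csf2ra only. Scripts were tested on simulated data. Positions and coding sequences came from GENCODE M21 on GRCm38 and promoters from RefSeq on GRCm38.p6, where 4 of the 6 genes had an entry that was used. Promoters on chromosome 18, where Csf1r lies, were left out.

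The alternatives were DESeq2 (1.42.0), RLE and upper-quartile normalization, no filter, edgeR's own filter, limma (3.58.1) on log2(FPKM + 1) and log2(FPKM + 0.1), a replicate block, each library left out, subtraction of 1% of the other group's level, and addition of the 2 beta chain genes. Fits of replicates 1 to 3 and 4 to 5 apart or as a term were chosen after seeing the data, from the order of libraries in the FPKM header. The labels name no batch.

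The 6 genes and all lists were chosen with earlier results of these data known. Genes were named if they belonged to the 6, to the other ligands and receptors or to the shedding proteases, if they were among the 2 largest called changes of a pathway list in each direction, if they were fixed by name (Tyrobp, Jak2, Stat5a, Stat5b, Spi1 and Pparg), if they were the most abundant or absent markers of a cell type, or if they were the 2 most alike or the neighbouring genes. Other marker genes were named after their values were seen. Some genes that this rule names are not reported here.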

Additional observations from a re-analysis of the deposited data

Results flagged for a closer look

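In 78 groups of 5 libraries, those of 39 named genes, the highest or lowest library was set against the others by its gap relative to the range (Dixon's criterion), which chance exceeds in about 1 of 20 groups. There were 8 such cases in 5 libraries, and 1 case was for the 6 CSF genes. Csf2rb2 was at 341 CPM in MAM replicate 4, against 280 in the next library. The same library stood apart for Il34, at 0.778 CPM (43 reads), and for Csf3, at 0.760 CPM (42 reads). RAM replicate 4 stood apart for Il5ra, at 0.876 CPM (42 reads, none in the next library), and for Fabp5, at 55.0 CPM against 40.2. In RAMs, Furin was at 327 CPM in replicate 5 against 278, Socs1 at 2.61 CPM in replicate 3 against 0.556, and Cish was lowest in replicate 2, at 27.3 CPM against 32.7.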

How the results depend on the processing

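All 6 CSF genes kept the direction of their difference in each of 22 alternatives. Csf1, Csf1r and Csf2rb were called in all 22, Csf2rb2 passed the adjusted p limit in all without being called, and Csf3r passed in all and was called in 17. Csf2ra passed only in 3, at -0.32 under upper-quartile normalization (adjusted p = 0.00680, edgeR) and at -0.24 with limma on log2(FPKM + 1) (adjusted p = 0.0348) and on log2(FPKM + 0.1) (adjusted p = 0.0337). The cause was not tested, except that the first of these moved the median of all genes by -0.16. With single libraries left out, log2 fold changes ran from 5.70 to 5.89 for Csf1, 1.94 to 2.06 for Csf1r, -0.21 to -0.09 for Csf2ra, -1.38 to -1.31 for Csf2rb, -0.51 to -0.39 for Csf2rb2 and 0.92 to 1.20 for Csf3r. The number of all genes called was between 2909 (limma, log2(FPKM + 1)) and 4672 (no filter). Deviations of same-numbered MAM and RAM libraries from their group means had correlations of -0.04 to 0.03. The labels state no pairing, and such values cannot decide whether the samples were paired. With the replicate number as a block, log2 fold changes were 5.77 for Csf1, 2.02 for Csf1r, -0.15 for Csf2ra, -1.34 for Csf2rb, -0.44 for Csf2rb2 and 1.06 for Csf3r, with 4 of the 6 genes and 3526 of all genes called. Among the other named genes 11 results fell below the adjusted p limit under an alternative, 8 of them for Tyrobp and 1 each for Furin, Src and Stat5b in subsets of replicates, and 2 rose past it, both for Spi1. Depth limits the genes with few or no reads, such as Csf3, Il34, Il5ra and, in RAMs, Socs1.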
